A study of Mus musculus with 6 samples.

Results

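Axon growth rests on a set of structural and regulatory proteins of the axon shaft and its tip, the growth cone, and 60 genes of this kind were followed through 3 stages of the embryonic mouse dorsal spinal cord. The genes were taken by symbol from a list that covers neurofilaments, tubulins, microtubule-associated proteins (MAPs), stathmins, the doublecortin family, collapsin response mediator proteins (CRMPs), motor subunits, ankyrins and spectrins, growth cone phosphoproteins, actin-linked and navigator proteins, Cdk5 with its activators, and a few other neuronal proteins, which makes 12 classes. Of the 60 genes, 51 were measured by a transcript cluster (the probes summed for 1 transcribed locus) that names no other gene, out of 14860 genes with a cluster of their own. *Tubb3* and *Tuba1a* share their clusters with other genes, and *Map1a*, *Map7d2*, *Stmn1*, *Kif21b*, *Spna2*, *Marcks* and *Nav3* were not matched by symbol and were not analysed here.

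RNA came from GFP+ cells that were purified by fluorescence-activated cell sorting from dissected dorsal spinal cords of embryos carrying *Wnt1-cre* and *Rosa26mTmG*, a reporter that switches to membrane GFP where Cre has been active. All groups carried both alleles, and no cells without them were included, so the groups differ, by their labels, in embryonic stage alone: E10.5, E11.5 and E12.5, with 2 arrays each and 6 in all. *Wnt1-cre* is active in dorsal progenitors and in neural crest, so GFP marks every descendant of those cells and not commissural neurons alone. The sources do not say if a stage's 2 arrays hold different litters, so each p-value measures the spread between arrays, which may be technical, and in an exact permutation test 2 arrays against 2 cannot go below p = 0.333.

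A growing axon is filled with parallel microtubules, polymers of alpha- and beta-tubulin that MAPs bundle and stabilise and along which kinesins carry cargo outward and dynein carries it back. Neurofilaments fill the shaft and set its calibre, while in the growth cone the microtubule tips meet an actin network that responds to guidance cues through linkers such as the CRMPs, drebrin and the navigators. In the dorsal spinal cord these proteins are made as newborn interneurons leave the ventricular zone and send out commissural and ipsilateral axons.

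Values are log2 signals, so a difference of 1 is a doubling, and they were compared between stages for 1 gene at a time, since signals of different clusters are not on a common level. A cluster was called above the detection limit when its mean over the 6 arrays exceeded 5.81, a level that 95% of the 802 clusters of olfactory and vomeronasal receptor genes stayed under, and 46 of the 51 genes did so. *Nefh*, *Prph*, *Mapt*, *Dync1i1* and *Ablim1* lay below the limit. The arrays were not equal in quality. E10.5 replicate 1 correlated with the other arrays at a mean r of 0.890 against 0.948 to 0.955 for the rest, and its 95th percentile of receptor signals was 6.53. The other replicate 1 arrays stood at 6.15 and 6.52 on that measure, and the replicate 2 arrays at 5.34 to 5.36. Of the 51 genes, 34 were lower in E10.5 replicate 1 than in replicate 2, beside 37.6% of all clusters and 65.6% of the 6873 single-gene clusters above the limit. At E12.5, 43 of the 51 genes were higher in replicate 2 than in replicate 1, and the share over all clusters was not counted. In E12.5 replicate 2 the median of the single-gene clusters above the limit was also higher, 7.15 against 6.93 in replicate 1. The median of all clusters was lower there, 5.33 against 5.53.

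The axonal cytoskeleton genes were mostly higher at E12.5 than at E10.5, and no single gene passed the test after adjustment over all clusters. The median difference over the 51 genes was 0.64, against -0.10 over all 23332 clusters and 0.045 over the single-gene clusters above the limit. Differences ran from -0.68 for *Nefm* to 1.47 for *Dpysl2*, with 39 genes above 0 and 12 below, beside 38.4% of all clusters and 54.8% of the single-gene clusters above the limit that were above 0. The smallest adjusted p among them was 0.991 (limma with Benjamini-Hochberg adjustment), and no cluster of the array passed at this stage pair. At an unadjusted limma p under 0.05, 13 of the 51 genes were higher and none was lower, beside 1.76% higher and 2.22% lower of all clusters, and 3.64% and 1.29% of the single-gene clusters above the limit. Both E12.5 arrays lay above both E10.5 arrays for 32 genes and below them for 3, *Nefm*, *Prph* and *Fez2*, beside 9.35% and 14% of all clusters and 17.0% and 13.6% of the single-gene clusters above the limit. In the plot of signals by array the lines of the doublecortin family, the CRMPs and most motor subunits slope upward together, while those of the intermediate filaments spread in both directions.

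**Figure D1:**
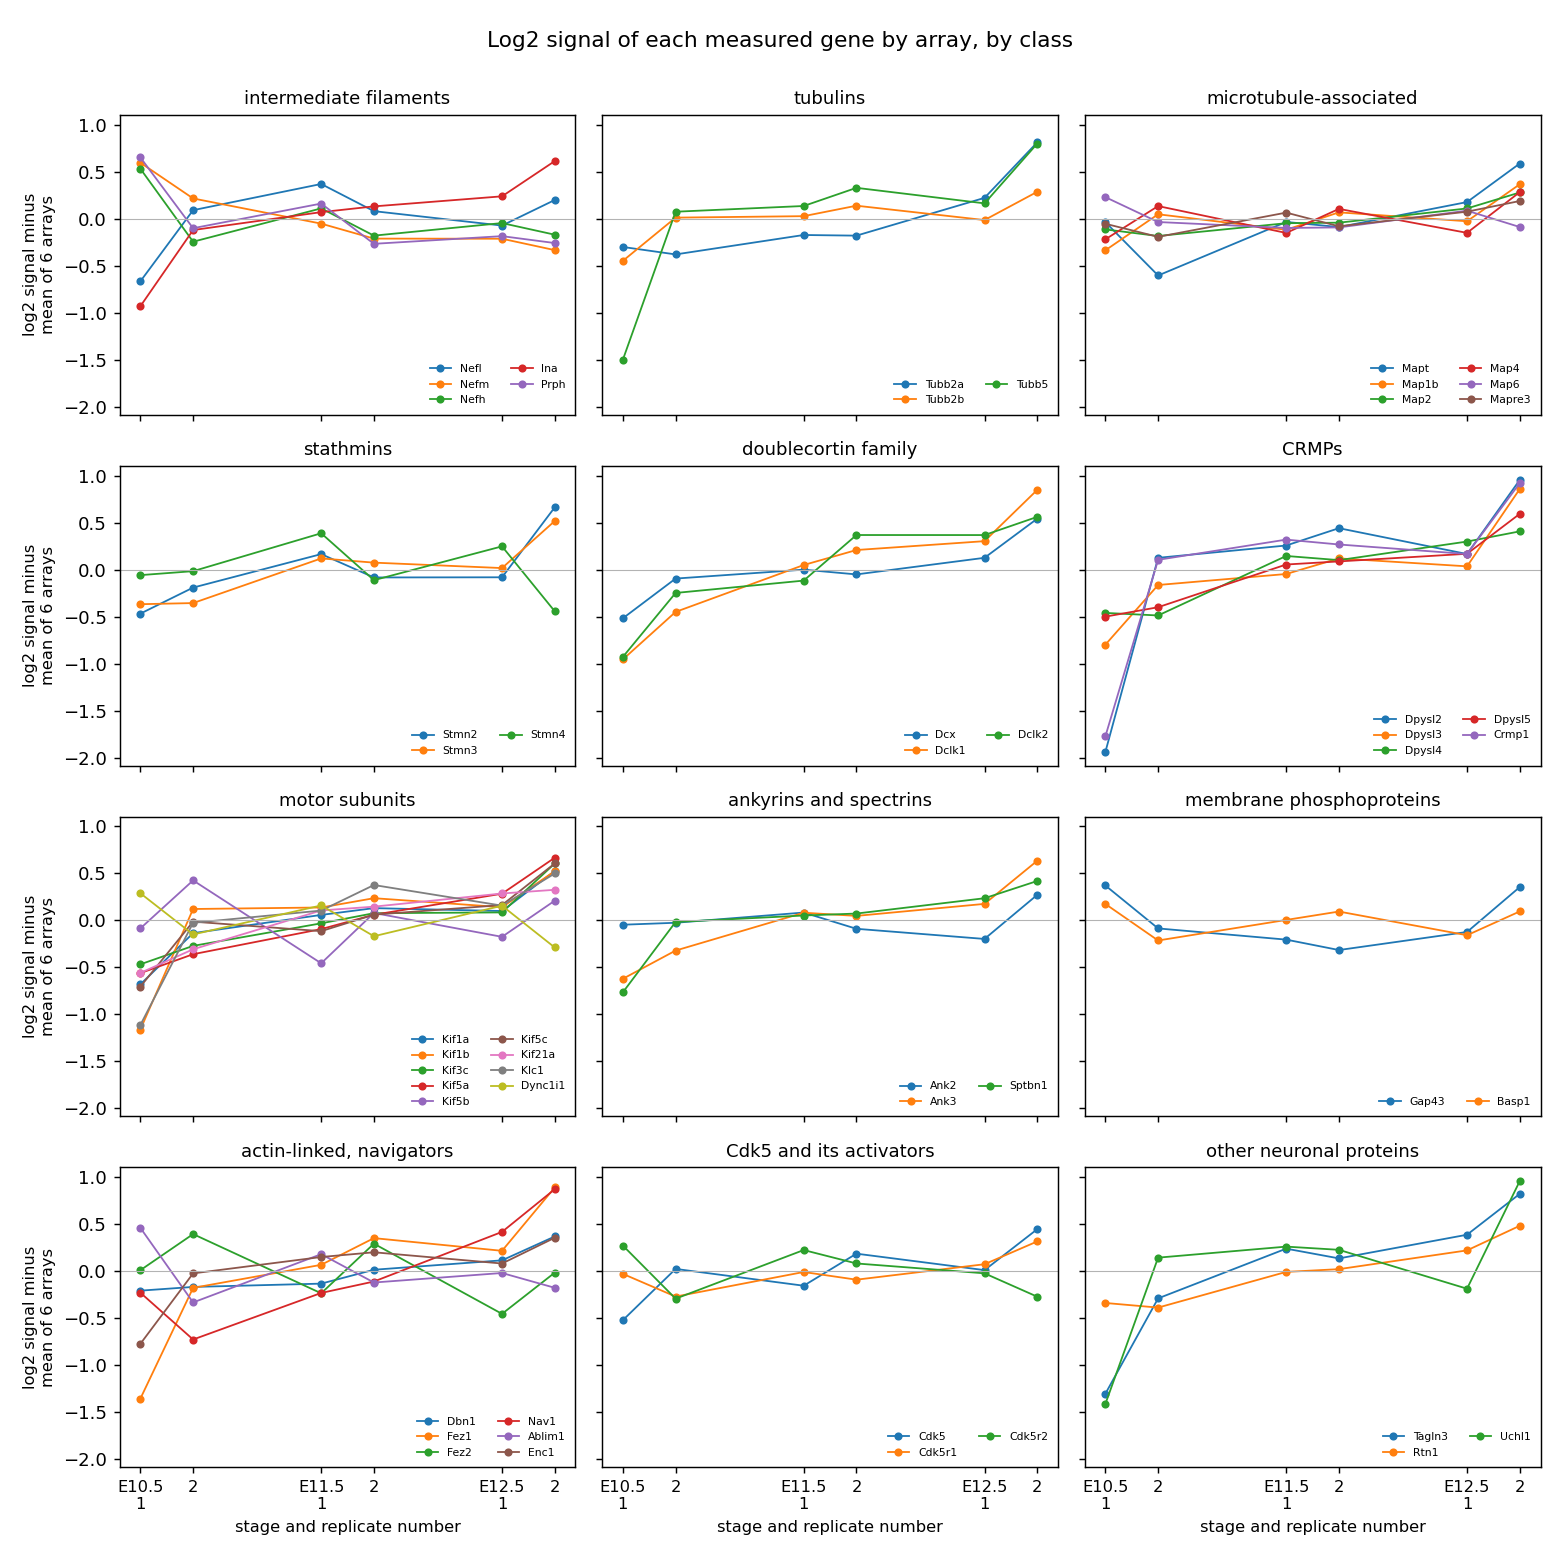
Log2 signal of the 51 measured genes in each of the 6 arrays, minus the gene's mean over the arrays (y axis), in 12 panels, 1 per class. Stage and replicate number are on the x axis, each point is 1 array, and lines only join the points of a gene. *Dpysl2*, *Crmp1*, *Tubb5*, *Fez1*, *Uchl1* and *Tagln3* are more than 1 lower in E10.5 replicate 1 than in E10.5 replicate 2.

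The size of this difference depended on the array E10.5 replicate 1. The 2 E10.5 arrays differed by more than 1 for 8 genes, in each case with replicate 1 lower: *Dpysl2*, *Crmp1*, *Tubb5*, *Uchl1*, *Kif1b*, *Fez1*, *Klc1* and *Tagln3*, with gaps of 1.02 to 2.07. Over these 8 genes the E12.5 minus E10.5 differences were 0.85 to 1.47 with all arrays and 0.21 to 0.89 without that array. Without it the median over the 51 genes was 0.40, 44 genes were above 0, and 8 were higher and 0 lower at an unadjusted p under 0.05, beside 1.83% higher and 3.85% lower of all clusters and 2.88% and 4.18% of the single-gene clusters above the limit. Of the 13 genes named by the test on all arrays, 7 were among the 8 higher without that array, namely *Dclk1*, *Nav1*, *Tagln3*, *Dpysl4*, *Kif5a*, *Tubb2a* and *Rtn1*, and *Mapt* was added. The count depended on E12.5 replicate 2 as well: without it 0 of the 51 genes had an unadjusted p under 0.05 in either direction, although the median difference was still 0.45.

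**Figure D2:**
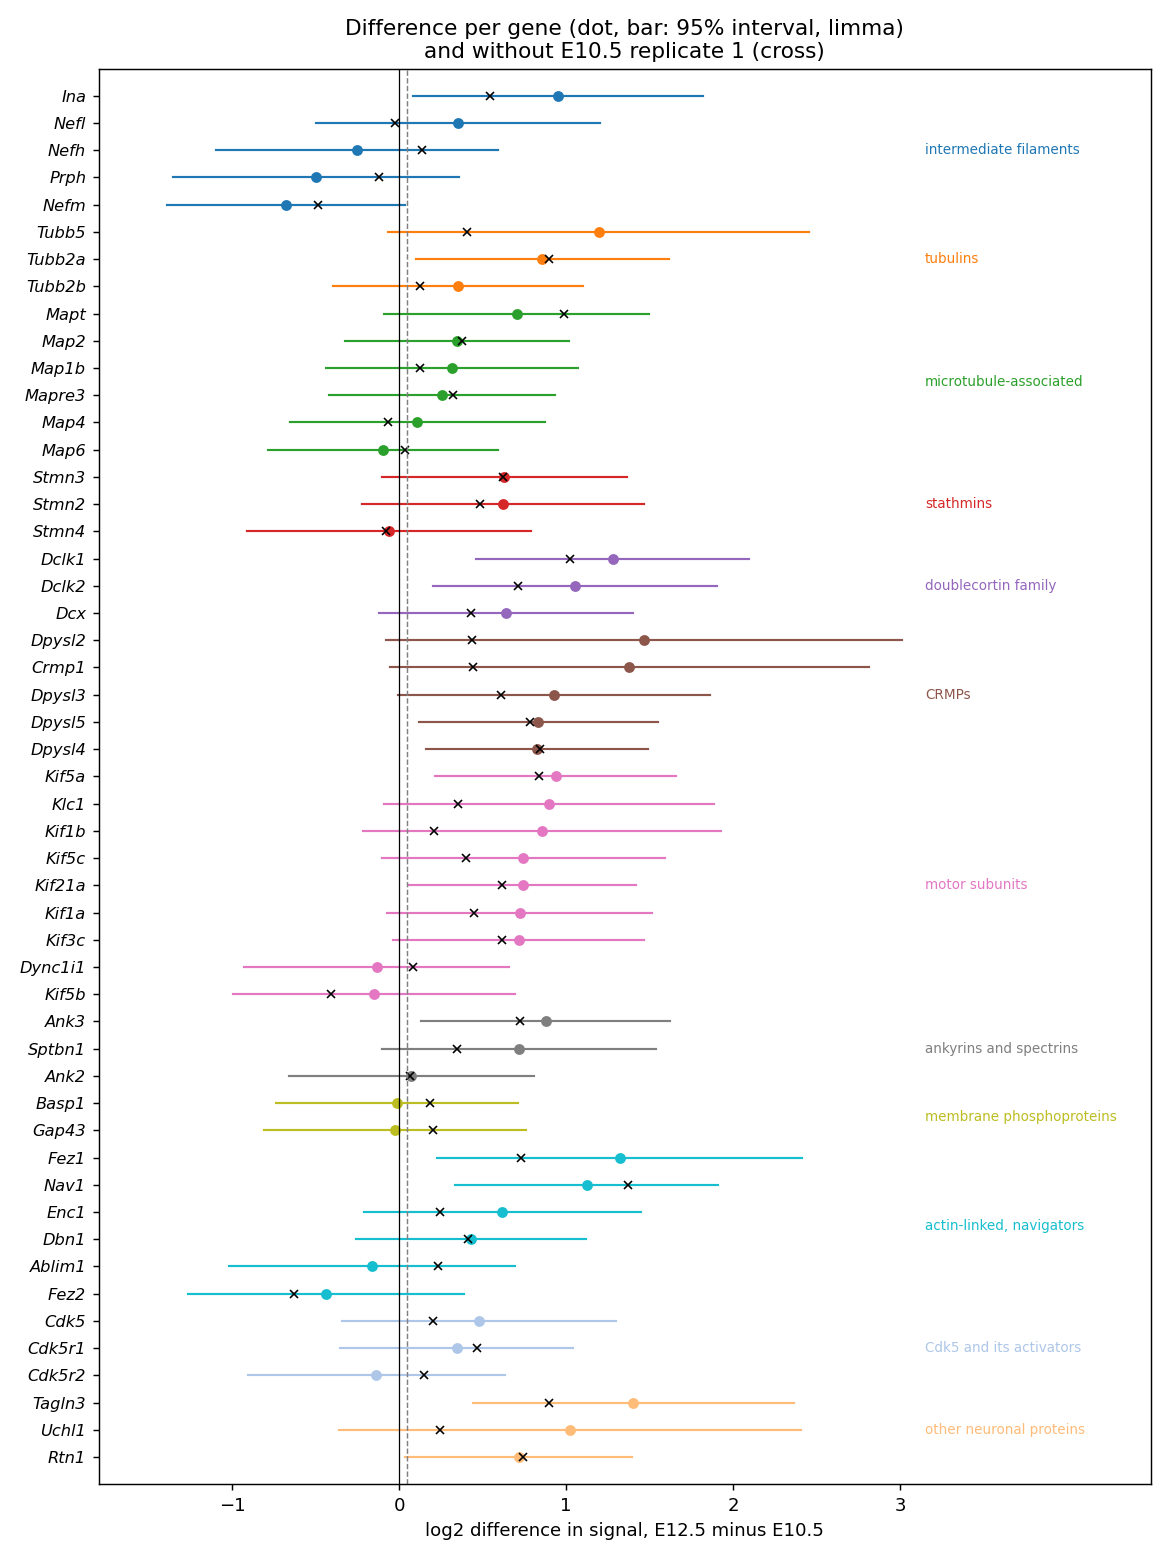
Log2 difference in signal between E12.5 and E10.5 (x axis) for the 51 genes, grouped by class (colour). Dots are the estimates from all 6 arrays with their 95% intervals from limma, crosses are the estimates without E10.5 replicate 1, and the dashed line is the median of the single-gene clusters above the detection limit, 0.045. The dots of all 5 CRMP genes lie between 0.83 and 1.47, and the crosses of *Dpysl2* and *Crmp1* stand at 0.43 and 0.44.

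Promoter sequences are shown for 4 of the genes that were higher at E12.5 with the smallest unadjusted p-values among those with a single annotated start, so that the starts of genes with differences in the same direction can be read side by side. They are RefSeq windows of the GRCm38.p6 build, 250 bases before to 50 after the start, and were found for 33 of the 51 genes, 52 windows in all. Capitals mark TATAAA, the E-box hexamers CAGCTG and CAGATG, and the GC box GGGCGG, searched on both strands with overlaps allowed.
*Tagln3*, chr16:45724482-45724781, minus strand: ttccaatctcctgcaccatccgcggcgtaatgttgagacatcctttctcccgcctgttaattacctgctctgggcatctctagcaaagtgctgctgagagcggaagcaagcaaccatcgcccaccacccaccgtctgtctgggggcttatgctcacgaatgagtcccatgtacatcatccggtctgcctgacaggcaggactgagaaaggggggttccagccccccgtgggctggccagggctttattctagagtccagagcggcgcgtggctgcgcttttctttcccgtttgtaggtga
*Nav1*, chr1:135585306-135585605, minus strand: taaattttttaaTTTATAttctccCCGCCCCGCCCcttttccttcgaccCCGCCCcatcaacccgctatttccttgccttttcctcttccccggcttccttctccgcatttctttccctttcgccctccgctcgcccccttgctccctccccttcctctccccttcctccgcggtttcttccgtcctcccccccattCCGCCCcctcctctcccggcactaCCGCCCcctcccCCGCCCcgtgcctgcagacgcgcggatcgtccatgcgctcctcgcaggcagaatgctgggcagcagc
*Dclk2*, chr3:86920835-86921134, minus strand: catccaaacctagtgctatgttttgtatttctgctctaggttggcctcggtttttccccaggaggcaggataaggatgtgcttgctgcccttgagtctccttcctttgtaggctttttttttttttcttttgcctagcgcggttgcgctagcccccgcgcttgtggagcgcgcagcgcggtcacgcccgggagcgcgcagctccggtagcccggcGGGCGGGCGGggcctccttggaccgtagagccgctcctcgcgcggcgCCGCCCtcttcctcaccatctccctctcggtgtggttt
*Dpysl5*, chr5:30711314-30711613, plus strand: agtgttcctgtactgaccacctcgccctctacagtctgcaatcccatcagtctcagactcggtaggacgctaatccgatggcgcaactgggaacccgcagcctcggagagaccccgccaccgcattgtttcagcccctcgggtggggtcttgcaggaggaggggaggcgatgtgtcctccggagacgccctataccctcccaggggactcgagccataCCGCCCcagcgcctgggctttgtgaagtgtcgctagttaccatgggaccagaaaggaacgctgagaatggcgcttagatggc

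The *Tagln3* window held none of these motifs, and the *Nav1* window held 1 TATAAA and 6 GGGCGG matches, 2 of which overlap. *Dclk2* had 3 GGGCGG matches and *Dpysl5* had 1. Among all 52 windows of the list, GGGCGG was present in 29, CAGCTG in 11, CAGATG in 12 and TATAAA in 11, and in 35.7%, 16.3%, 17.2% and 13.6% of the 32851 windows of all genes. The median GC content of the listed windows was 56.8% against 52.7% over all windows, with 15 and 7 CpG dinucleotides. A match is a description of the letters and no evidence of binding.

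The intermediate filament genes did not move as 1 class. Between E10.5 and E12.5 the signal of *Nefm*, the medium neurofilament subunit, was lower, and that of *Ina*, which encodes alpha-internexin, the intermediate filament that neurons assemble before the full neurofilament triplet, was higher, neither past the adjusted threshold. *Nefm* measured 11.26 and 10.88 in the E10.5 arrays, 10.61 and 10.45 in the E11.5 arrays and 10.45 and 10.33 in the E12.5 arrays. Its arrays were in downward order over the 3 stages, although E11.5 and E12.5 met at 10.45. That order held for 1 of the 51 genes, and for 1.57% of all clusters and 1.70% of the single-gene clusters above the limit, and the E12.5 minus E10.5 difference was -0.68 ± 0.30 (SE) with unadjusted p = 0.0592. *Ina* measured 9.16 and 9.97 in the E10.5 arrays, 10.16 and 10.23 in the E11.5 arrays and 10.33 and 10.71 in the E12.5 arrays. Every later array was above every earlier one, and the difference was 0.95 ± 0.37 (SE) with unadjusted p = 0.0358, or 0.55 without E10.5 replicate 1 (unadjusted p = 0.133). Set against each other within arrays, the difference between *Ina* and *Nefm* grew by 1.63 from E10.5 to E12.5, by 1.98 in replicate 1 and 1.28 in replicate 2, a pair chosen after the values were seen. *Nefl*, the light subunit, differed by 0.35 ± 0.36 (SE) with overlapping arrays, and by -0.03 without E10.5 replicate 1. *Nefh*, the heavy subunit of mature axons, measured 5.18 and 4.40 in the E10.5 arrays, 4.76 and 4.47 in the E11.5 arrays and 4.60 and 4.48 in the E12.5 arrays, with the highest value in E10.5 replicate 1, and its difference of -0.25 was 0.14 without that array. *Prph*, which encodes peripherin and marks neurons that project to the periphery, differed by -0.50 (-0.12 without it) and, like *Nefh*, lay below the detection limit. The class median of -0.25 was -0.028 without that array and became 0.35 when only the 3 genes above the limit were kept.

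The 3 listed tubulin genes with a cluster of their own, *Tubb2a*, *Tubb2b* and *Tubb5*, all beta-tubulins of developing neurons, had a median difference of 0.86, or 0.41 without E10.5 replicate 1. *Tubb2a* measured 9.25 and 9.17 in the E10.5 arrays, 9.38 and 9.37 in the E11.5 arrays and 9.78 and 10.37 in the E12.5 arrays. The arrays of the first 2 stages lay close together and both E12.5 arrays were above them, for a difference of 0.86 ± 0.32 (SE) and unadjusted p = 0.032, most of it on the second day (0.69 against 0.16 on the first). *Tubb5* differed by 1.19 ± 0.53 (SE) with unadjusted p = 0.0603, but its E10.5 arrays were 1.57 apart and the difference was 0.41 without replicate 1. *Tubb2b* differed by 0.35 ± 0.32 (SE) (0.12 without it), and its groups overlapped. The cluster that names *Tuba1a* together with *Tuba1c* and a predicted gene measured 7.07 and 8.82 in the E10.5 arrays, 10.01 and 9.89 in the E11.5 arrays and 9.16 and 10.46 in the E12.5 arrays, and the one that names *Tubb3*, the neuronal beta-tubulin, together with *Mc1r* measured 9.87 and 11.09 in the E10.5 arrays, 11.40 and 11.11 in the E11.5 arrays and 11.12 and 11.45 in the E12.5 arrays. Both were lowest in E10.5 replicate 1, and neither can be read as a single gene. Of 8 measured genes among 14 other tubulins, none had an unadjusted limma p under 0.05, beside 1.76% higher and 2.22% lower of all clusters. Of these genes 4 were above 0 and 4 below, and their median difference was -0.10, or 0.024 without E10.5 replicate 1.

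MAP genes had a median difference of 0.28 over 6 genes, and none was past an unadjusted p of 0.05 with all arrays. *Map2*, whose protein is best known from dendrites, measured 10.60 and 10.53 in the E10.5 arrays, 10.67 and 10.67 in the E11.5 arrays and 10.82 and 10.99 in the E12.5 arrays. Its arrays were ordered upward over the stages, but the steps were small and the difference was 0.34 ± 0.28 (SE) with unadjusted p = 0.266. *Mapt*, which encodes the axonal MAP tau, measured 5.63 and 5.07 in the E10.5 arrays, 5.64 and 5.58 in the E11.5 arrays and 5.85 and 6.26 in the E12.5 arrays. Both E12.5 arrays were above both E10.5 arrays, the mean lay just under the detection limit, and the difference of 0.70 ± 0.34 (SE) (unadjusted p = 0.075) became 0.99 without E10.5 replicate 1 (unadjusted p = 0.0205). *Map6*, which stabilises microtubules against cold, measured 6.61 and 6.35 in the E10.5 arrays, 6.28 and 6.29 in the E11.5 arrays and 6.47 and 6.29 in the E12.5 arrays. Both E11.5 arrays were below all the others, the E10.5 and E12.5 arrays overlapped, and E12.5 minus E10.5 was -0.10 ± 0.29 (SE), or 0.03 without E10.5 replicate 1. *Map1b*, abundant in growing axons, differed by 0.31 (0.12 without E10.5 replicate 1), the ubiquitous *Map4* by 0.11 (-0.07 without it), and *Mapre3*, which tracks growing microtubule ends, by 0.25.

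Among the stathmins, which bind free tubulin and promote microtubule disassembly, *Stmn2* and *Stmn3* were higher at E12.5 in both arrays and *Stmn4* was not. *Stmn3* measured 6.09 and 6.10 in the E10.5 arrays, 6.58 and 6.53 in the E11.5 arrays and 6.48 and 6.98 in the E12.5 arrays. The E10.5 arrays were nearly equal and below all others, and the difference was 0.63 ± 0.31 (SE) with unadjusted p = 0.082. *Stmn2* differed by 0.62 ± 0.36 (SE) with unadjusted p = 0.125. *Stmn4* differed by -0.06 ± 0.36 (SE), and its E12.5 arrays, at 7.36 and 6.67, lay on either side of both E10.5 arrays, at 7.05 and 7.10.

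The doublecortin family gave the smallest p-value of the list with all arrays. Its 3 members bind along microtubules in migrating and axon-bearing neurons. Both E12.5 arrays were above both E10.5 arrays for all 3, beside 9.35% of all clusters and 17% of the single-gene clusters above the limit. The median difference of the 3 genes was 1.05 (0.71 without E10.5 replicate 1). *Dclk1*, a doublecortin-like kinase, measured 7.71 and 8.22 in the E10.5 arrays, 8.72 and 8.88 in the E11.5 arrays and 8.97 and 9.52 in the E12.5 arrays. All arrays were in order of stage, and the signal at E12.5 was 2.43-fold that at E10.5, a log2 difference of 1.28 ± 0.35 (SE) with a 95% interval of 0.46 to 2.09 and unadjusted p = 0.00756. The first day gave 0.83 (unadjusted p = 0.0468) and the second 0.45, and without E10.5 replicate 1 the 2-day difference was 1.03 (unadjusted p = 0.0241). *Dclk2*, the related kinase, measured 6.27 and 6.95 in the E10.5 arrays, 7.08 and 7.57 in the E11.5 arrays and 7.57 and 7.76 in the E12.5 arrays. E11.5 replicate 2 and E12.5 replicate 1 were equal to 2 decimals, while E10.5 and E12.5 did not overlap, and the difference was 1.05 ± 0.36 (SE) with unadjusted p = 0.0223, or 0.71 without E10.5 replicate 1 (unadjusted p = 0.0784). *Dcx* itself, a standard marker of newborn neurons, differed by 0.64 ± 0.32 (SE) with arrays in order of stage over all 6 and unadjusted p = 0.0865, or 0.43 without E10.5 replicate 1.

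All 5 CRMP genes were higher at E12.5. CRMPs bind tubulin dimers and relay semaphorin signals to the growth cone. Both E12.5 arrays lay above both E10.5 arrays for each gene, beside 9.35% of all clusters and 17% of the single-gene clusters above the limit. The differences were 0.83 to 1.47 with a median of 0.93, or 0.61 without E10.5 replicate 1. *Dpysl4* measured 7.77 and 7.75 in the E10.5 arrays, 8.38 and 8.33 in the E11.5 arrays and 8.53 and 8.64 in the E12.5 arrays. Its replicates were close at each stage, the stages did not overlap, and the difference was 0.83 ± 0.28 (SE) with unadjusted p = 0.0217 and 0.84 without E10.5 replicate 1. *Dpysl5* measured 7.75 and 7.85 in the E10.5 arrays, 8.30 and 8.34 in the E11.5 arrays and 8.42 and 8.84 in the E12.5 arrays. Its stages were ordered in the same way, with a difference of 0.83 ± 0.30 (SE) and unadjusted p = 0.0287, and 0.78 without that array. *Dpysl2* and *Crmp1* had the largest differences of the class, 1.47 ± 0.65 (SE) and 1.38 ± 0.61 (SE), and also the widest gaps between the E10.5 arrays of all 51 genes, 2.07 and 1.88. Without E10.5 replicate 1 they differed by 0.43 and 0.44. *Dpysl3* differed by 0.93 ± 0.40 (SE) with unadjusted p = 0.0515, or 0.61 without that array.

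Motor subunits were higher at E12.5 for 7 of 9 genes in both arrays, beside 9.35% of all clusters and 17.0% of the single-gene clusters above the limit, and their median of 0.74 was 0.40 without E10.5 replicate 1. *Kif5a*, a neuronal heavy chain of kinesin-1, the main motor of fast outward transport, measured 6.10 and 6.30 in the E10.5 arrays, 6.57 and 6.72 in the E11.5 arrays and 6.95 and 7.33 in the E12.5 arrays. All arrays were in order of stage, and the difference was 0.94 ± 0.31 (SE) with unadjusted p = 0.018 and 0.84 without E10.5 replicate 1. *Kif5c*, the other neuronal heavy chain, differed by 0.74 ± 0.36 (SE) (0.40 without that array), while *Kif5b*, the ubiquitous one, differed by -0.15 ± 0.36 (SE) (-0.41 without it) with overlapping arrays. Within arrays *Kif5a* gained 1.09 on *Kif5b*, 0.93 and 1.24 in replicates 1 and 2, again for a pair chosen after the values were seen. *Kif21a*, a kinesin-4 that restrains microtubule growth, measured 8.93 and 9.18 in the E10.5 arrays, 9.59 and 9.63 in the E11.5 arrays and 9.77 and 9.81 in the E12.5 arrays. Stages did not overlap, and the difference of 0.74 ± 0.29 (SE) (unadjusted p = 0.0371) came mostly on the first day, 0.56 against 0.18, and was 0.61 without E10.5 replicate 1 (unadjusted p = 0.0765). *Kif1a* and *Kif1b*, which carry precursors of synaptic vesicles and other cargo, differed by 0.72 and 0.85, *Kif3c* by 0.71 and the kinesin light chain *Klc1* by 0.90. Without E10.5 replicate 1 these differences were 0.45, 0.21, 0.62 and 0.35. *Dync1i1*, an intermediate chain of cytoplasmic dynein, measured 4.36 and 3.93 in the E10.5 arrays, 4.23 and 3.91 in the E11.5 arrays and 4.23 and 3.79 in the E12.5 arrays. It was below the detection limit in all arrays, with no order by stage.

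Genes of other motors had medians nearer 0. Of 13 measured dynein and dynactin genes none had an unadjusted p under 0.05, and their median difference was 0.15, or -0.086 without E10.5 replicate 1. Of 10 other kinesin and kinesin light chain genes with a median of 0.06 (0.12 without that array), *Kif26b* was higher by 0.76 (unadjusted p = 0.0393) and *Kif1c* was lower. *Kif1c*, a kinesin-3 expressed in many tissues, has 2 clusters, and the dimmer one is not described here. The brighter one measured 8.41 and 6.55 in the E10.5 arrays, 6.34 and 6.46 in the E11.5 arrays and 5.60 and 5.43 in the E12.5 arrays. Its difference was -1.97 ± 0.57 (SE) with unadjusted p = 0.0108, and E10.5 replicate 1 stood far above all other arrays, without which it was -1.04 (unadjusted p = 0.012).

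Ankyrin and spectrin genes encode the membrane skeleton that spaces and anchors channels along the axon. *Ank3*, which encodes ankyrin-G of the axon initial segment, measured 8.47 and 8.77 in the E10.5 arrays, 9.17 and 9.13 in the E11.5 arrays and 9.26 and 9.72 in the E12.5 arrays. No arrays overlapped between stages, and the difference was 0.88 ± 0.32 (SE) with unadjusted p = 0.0273, or 0.73 without E10.5 replicate 1 (unadjusted p = 0.0672). *Ank2*, for ankyrin-B, differed by 0.07 ± 0.31 (SE). *Sptbn1*, for the non-erythroid beta-spectrin, has 2 clusters: the brighter one differed by 0.72 ± 0.35 (SE) with arrays in order of stage (0.34 without that array), and the dimmer one, with a mean signal of 5.97, by -0.62 ± 0.39 (SE).

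*Gap43* and *Basp1*, which encode the major phosphoproteins of the growth cone membrane, showed no difference between E10.5 and E12.5 that exceeded the replicate spread. *Gap43* measured 8.18 and 7.72 in the E10.5 arrays, 7.60 and 7.49 in the E11.5 arrays and 7.68 and 8.16 in the E12.5 arrays. The highest E10.5 and E12.5 arrays were almost equal, E11.5 was lowest, and E12.5 minus E10.5 was -0.03 ± 0.33 (SE) with a 95% interval of -0.81 to 0.76. *Basp1* differed by -0.01 ± 0.31 (SE) with an interval of -0.74 to 0.71. With 2 arrays a stage, the values do not exclude a difference anywhere inside these intervals. The class median of -0.02 changed sign, to 0.11 with arrays centred on their medians and 0.19 without E10.5 replicate 1.

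Of the actin-linked and navigator genes, *Nav1* and *Fez1* were higher at E12.5. *Nav1*, which encodes a protein of microtubule plus ends in growing neurites, measured 7.22 and 6.72 in the E10.5 arrays, 7.21 and 7.34 in the E11.5 arrays and 7.86 and 8.32 in the E12.5 arrays. The E12.5 arrays were above all 4 earlier ones, and the 2-day difference was 1.12 ± 0.33 (SE) with unadjusted p = 0.0119. It was the only gene of the 51 with an unadjusted p under 0.05 on the second day, 0.82 with unadjusted p = 0.0444, and without E10.5 replicate 1, its higher E10.5 array, the 2-day difference was 1.37 (unadjusted p = 0.00527). *Fez1*, an adaptor that links cargo to kinesin-1, measured 6.17 and 7.34 in the E10.5 arrays, 7.59 and 7.87 in the E11.5 arrays and 7.74 and 8.41 in the E12.5 arrays. E10.5 replicate 1 was far below all others, and the difference of 1.32 ± 0.46 (SE) (unadjusted p = 0.0245) was 0.73 without it (unadjusted p = 0.102). *Fez2*, its more widely expressed relative, differed by -0.44 ± 0.35 (SE) in the opposite direction, with both E12.5 arrays below both E10.5 arrays. *Dbn1*, for the actin-binding protein drebrin, differed by 0.43 ± 0.29 (SE) with arrays in order of stage, and *Enc1*, an actin-associated kelch protein, by 0.62 ± 0.35 (SE), or 0.24 without E10.5 replicate 1. *Ablim1*, an actin-binding LIM protein, measured 5.04 and 4.25 in the E10.5 arrays, 4.76 and 4.46 in the E11.5 arrays and 4.56 and 4.40 in the E12.5 arrays. It stayed below the limit, with overlapping stages, and its difference of -0.16 was 0.23 without E10.5 replicate 1. Among 27 other actin regulators of the growth cone the median was 0.14 and 1 gene had an unadjusted p under 0.05: *Tmod2*, the neuronal tropomodulin that caps the pointed ends of actin filaments, at 6.44 and 7.15 in the E10.5 arrays, 7.63 and 7.67 in the E11.5 arrays and 7.69 and 8.15 in the E12.5 arrays and a difference of 1.12 ± 0.36 (SE) with unadjusted p = 0.0167. Without E10.5 replicate 1 the *Tmod2* difference was 0.77 (unadjusted p = 0.0566), so that none of the 27 genes had an unadjusted p under 0.05.

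Cdk5 is the kinase that phosphorylates many of these proteins in neurons. *Cdk5* measured 5.54 and 6.09 in the E10.5 arrays, 5.91 and 6.25 in the E11.5 arrays and 6.08 and 6.51 in the E12.5 arrays. The lower E12.5 array lay just below the higher E10.5 array, and the difference was 0.48 ± 0.35 (SE) with unadjusted p = 0.212, or 0.21 without E10.5 replicate 1. Its activators *Cdk5r1* (p35) and *Cdk5r2* (p39) differed by 0.34 ± 0.30 (SE) and -0.14 ± 0.33 (SE), and without that array by 0.47 and 0.15. Of 15 measured genes of microtubule-modifying enzymes and end-binding proteins, with a median of 0.34, 2 were higher at an unadjusted p under 0.05 and none was lower, beside 1.76% and 2.22% of all clusters. Without E10.5 replicate 1 the median was 0.046 and none had an unadjusted p under 0.05. *Atat1*, the tubulin acetyltransferase that marks stable microtubules, measured 6.78 and 7.47 in the E10.5 arrays, 7.80 and 8.004 in the E11.5 arrays and 8.005 and 8.49 in the E12.5 arrays. It had no overlap between stages and a difference of 1.12 ± 0.36 (SE) with unadjusted p = 0.0172, or 0.78 without that array (unadjusted p = 0.0594). *Ttll1*, a tubulin polyglutamylase subunit, differed by 1.29 ± 0.52 (SE) with unadjusted p = 0.0408, or 0.57 without it (unadjusted p = 0.191).

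The genes of the 3 remaining neuronal proteins differed by 0.71 to 1.40, with a median of 1.02. *Tagln3*, a calponin-family protein of neurons, measured 8.07 and 9.09 in the E10.5 arrays, 9.62 and 9.51 in the E11.5 arrays and 9.77 and 10.20 in the E12.5 arrays. All stages were separate, the signal at E12.5 was 2.64-fold that at E10.5, and the difference was 1.40 ± 0.41 (SE) with unadjusted p = 0.0106, of which 0.98 (unadjusted p = 0.0459) came on the first day. Without E10.5 replicate 1 it was 0.89 (unadjusted p = 0.032). *Rtn1*, a reticulon of the neuronal endoplasmic reticulum, measured 9.62 and 9.57 in the E10.5 arrays, 9.95 and 9.98 in the E11.5 arrays and 10.18 and 10.44 in the E12.5 arrays. Its replicates were close and its stages separate, with a difference of 0.71 ± 0.29 (SE) and unadjusted p = 0.0422. *Uchl1*, an abundant neuronal ubiquitin hydrolase, differed by 1.02 ± 0.59 (SE) with overlapping arrays, its E10.5 arrays were 1.56 apart, and without E10.5 replicate 1 the difference was 0.24.

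By day, the median difference over the 51 genes was 0.33 from E10.5 to E11.5 and 0.22 from E11.5 to E12.5, and the first of these was 0.20 without E10.5 replicate 1. On the first day 2 genes had an unadjusted p under 0.05, *Dclk1* and *Tagln3*, both higher, beside 0.831% higher and 1.16% lower of all clusters and 0.684% and 0.276% of the single-gene clusters above the limit. On the second day it was *Nav1* alone, beside 0.373% higher and 0.536% lower of all clusters and 0.480% and 0.233% of the single-gene clusters above the limit. The first-day difference was the larger one in 26 of the 39 genes above 0 over the 2 days. Without E10.5 replicate 1 it was the larger one in 18 of those 39 genes. The 39 genes were taken by their sign in the same values, and the share over all clusters was not counted. For the single-gene clusters above the limit, the median difference was 0.073 on the first day and -0.014 on the second. All arrays of each later stage lay above all arrays of the stage before for 15 genes, beside 1.57% of all clusters and 3.91% of the single-gene clusters above the limit, and these included 10 of the 13 genes with an unadjusted p under 0.05.

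**Figure D3:**
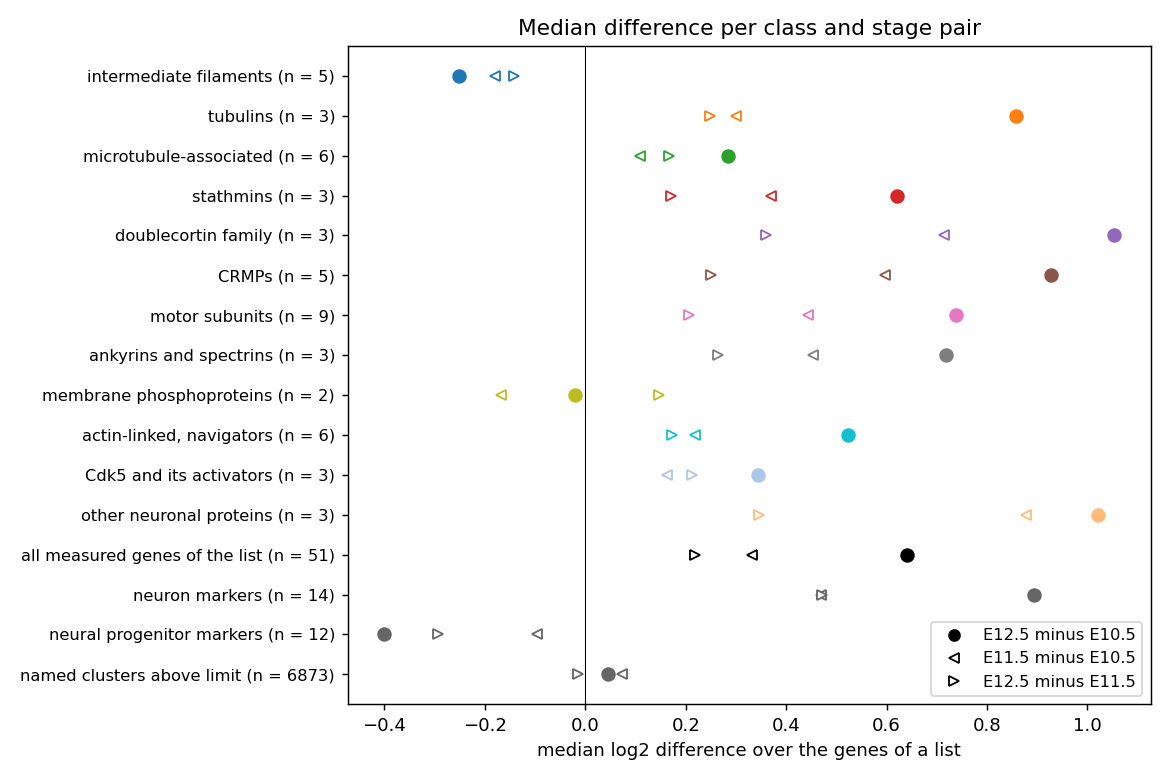
Median log2 difference over the genes of each class (x axis) for E12.5 minus E10.5 (filled), E11.5 minus E10.5 and E12.5 minus E11.5 (open triangles), with n the number of measured genes. The doublecortin family, other neuronal proteins and CRMPs have the highest 2-day medians, 1.05, 1.02 and 0.93, the intermediate filaments the lowest, -0.25, and the neuron markers stand at 0.89.

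Compared between arrays of the same replicate number, 38 genes were above 0 in both and 6 were below 0 in both. The difference was larger in replicate 1 for 22 genes. These counts were not made over all clusters or over the single-gene clusters above the limit. The medians over the measured genes were 0.55 for replicate 1 and 0.59 for replicate 2. Over all clusters they were -0.14 and -0.035, and over the single-gene clusters above the limit 0.11 and -0.0043. *Dclk1* differed by 1.26 and 1.30, and *Dpysl2* by 2.11 and 0.83.

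**Figure D4:**
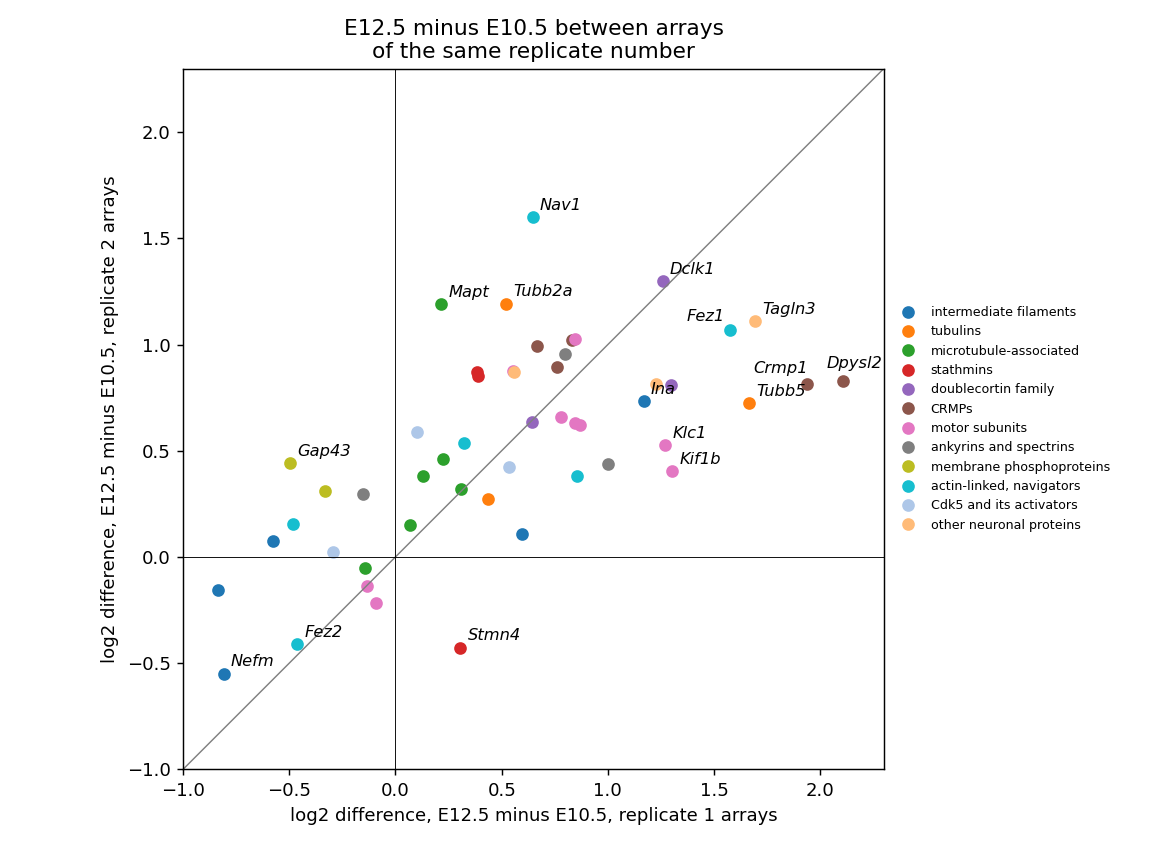
E12.5 minus E10.5 log2 difference of the 51 genes between the replicate 1 arrays (x axis) and between the replicate 2 arrays (y axis), coloured by class, with the line of equality in grey. *Dclk1* lies on the line at 1.26 and 1.30, *Nav1* and *Mapt* lie above it, and *Dpysl2* (2.11 and 0.83), *Crmp1* and *Tubb5* lie below it.

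Neuron markers were higher at E12.5 too. All 14 neuron markers outside the list, such as *Elavl3*, *Syt1* and *Snap25*, were above the limit and higher in both E12.5 arrays than in both E10.5 arrays, beside 9.35% of all clusters and 17.0% of the single-gene clusters above the limit. Their median difference was 0.89, or 0.96 without E10.5 replicate 1, and 9 of 14 had an unadjusted p under 0.05, beside 1.76% and 3.64%. Their summed signal, on the log2 scale, was 11.40 and 11.72 in the E10.5 arrays, 12.03 and 12.09 in the E11.5 arrays and 12.27 and 12.77 in the E12.5 arrays. The sorted cells, labelled as commissural neurons, also held progenitors: 11 of 12 neural progenitor markers and 8 of 8 dividing cell markers were above the limit. Of the progenitor markers 9 were lower at E12.5 and 3 were higher, *Pax3* by 0.49, *Fabp7* by 0.35 and *Notch1* by 0.06, with a median of -0.40 (-0.36 without E10.5 replicate 1) and only *Olig3*, at -1.15 ± 0.30 (SE), under an unadjusted p of 0.05 (unadjusted p = 0.00655). All 8 dividing cell markers were lower, with a median of -0.57, or -0.99 without E10.5 replicate 1. *Mki67* was at -1.05 ± 0.40 (SE) (unadjusted p = 0.036), or -0.89 without that array. Beside these counts, 38.4% of all clusters and 54.8% of the single-gene clusters above the limit were above 0. The summed progenitor signal was 12.16 to 12.63 at E10.5, 12.43 to 12.62 at E11.5 and 12.19 to 12.33 at E12.5, and the summed dividing cell signal was 11.24 to 11.89, 10.87 to 11.70 and 10.67 to 10.99. With RNA pooled over cells, more neurons among the sorted cells and more RNA of these genes per neuron cannot be told apart.

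All 7 commissural neuron markers were above the limit, with a median of -0.24, or 0.0094 without E10.5 replicate 1. They went both ways: *Lhx9*, *Lhx2*, *Barhl1* and *Barhl2*, transcription factors of the dI1 commissural class, were lower, and *Dcc*, *Robo3* and *Cntn2*, receptors and an adhesion protein of commissural axons, were higher, by 0.48, 0.34 and 0.33. Of the 7, *Lhx9* alone had an unadjusted p under 0.05, -0.72 ± 0.29 (SE) (unadjusted p = 0.0402), and without that array it was -0.62 (unadjusted p = 0.0769).

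Markers of other cells that *Wnt1-cre* or the dissection could bring in were mostly below the limit, and some were high in an E10.5 array. Of all clusters, 38.4% were above 0 between E10.5 and E12.5, so most clusters were lower as well. Mesenchyme had 2 of 8 markers above the limit, and all 8 were lower at E12.5, with a median of -0.32, or -0.063 without E10.5 replicate 1. *Postn*, which encodes the matrix protein periostin, measured 5.33 and 8.08 in the E10.5 arrays, 4.51 and 3.76 in the E11.5 arrays and 3.97 and 3.60 in the E12.5 arrays. Both E10.5 arrays were above all later ones, replicate 2 by far, and the difference was -2.92 ± 0.82 (SE) (unadjusted p = 0.0089), or -4.30 without E10.5 replicate 1 and -1.54 without E10.5 replicate 2. The summed mesenchyme signal was 8.83 to 9.03 at E10.5, 7.99 to 8.32 at E11.5 and 7.90 to 8.30 at E12.5. Microglia and macrophages had 2 of 6 markers above the limit, all 6 lower at E12.5, with a median of -0.11, or 0.24 without E10.5 replicate 1. *Cx3cr1*, the fractalkine receptor of microglia, measured 8.06 and 6.19 in the E10.5 arrays, 6.16 and 5.26 in the E11.5 arrays and 6.18 and 6.07 in the E12.5 arrays. It was highest in E10.5 replicate 1, and without that array its E12.5 minus E10.5 difference was -0.07. The summed microglia and macrophage signal was 7.68 to 8.92 at E10.5, 7.35 to 7.95 at E11.5 and 7.40 to 7.81 at E12.5. Neural crest and Schwann precursors had 4 of 7 markers above the limit, with a median of -0.37 and a summed signal of 9.78 to 10.20 at E10.5, 9.58 to 9.77 at E11.5 and 9.54 to 9.72 at E12.5, and *Cdh6*, a cadherin of neural crest and other neural cells, differed by -1.25 ± 0.34 (SE) (unadjusted p = 0.00788). Dorsal root ganglion neurons had 4 of 10 with a median of -0.13 (0.23 without E10.5 replicate 1), and motor neurons 1 of 8, *Isl1*, which dorsal interneurons also express, with a median of -0.30 (0.27 without that array). Their summed signals were 9.86 to 10.10 at E10.5, 10.25 to 10.51 at E11.5 and 10.16 to 10.51 at E12.5, and 8.65 to 9.45 at E10.5, 9.34 to 9.39 at E11.5 and 9.14 to 9.24 at E12.5. Red blood cells had 2 of 3 above the limit with a median of -0.44 (-0.0023 without it), and endothelium 0 of 6 with a median of -0.12 (0.18 without it). Their summed signals were 7.04 to 7.78 at E10.5, 7.08 to 7.39 at E11.5 and 7.07 to 7.40 at E12.5, and 6.72 to 7.35 at E10.5, 6.65 to 7.09 at E11.5 and 6.73 to 7.10 at E12.5. The part of cell content in the differences of the cytoskeleton genes was not tested.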

How the data were processed

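Expression was measured in 6 arrays (Affymetrix Mouse Exon 1.0 ST) from sorted GFP+ cells, 2 for each of 3 embryonic stages. Per transcript cluster, the values the authors deposited are log2 signals, and per the submitters' processing notes they used oligo and the mm9 build, and the version, background correction and summary method are not given in the sources used here. Depth does not apply to arrays, whose number limits the precision. Of 23332 clusters, 14996 were named for 1 gene by the platform annotation, 1019 for several, and 7317 were not listed there. A gene with more than 1 cluster was represented by the brightest.

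Stages were compared on the deposited values in R 4.3.3 with limma 3.58.1 (a mean per stage, all 6 arrays, moderated variance, Benjamini-Hochberg adjustment over all clusters, threshold 0.05), a script tested on simulated data. Tables and plots were made in Python 3.11.15 with pandas 2.3.3 and matplotlib 3.10.9. The study's methods name no test for the arrays. Values in every array are given for 23 genes: in classes of 4 or more the 2 of smallest p and the 1 of smallest absolute difference, in smaller classes the 1 of smallest p, and any gene with an unadjusted p under 0.05. From each other list at most the 2 of smallest p were named. Alternatives were quantile normalization, centring, the replicate number as a block, other variance models, other sets of clusters and leaving out each array. The members, lists and tests were chosen with earlier results of these data known. The files' build is mm9, so no gene coordinates are given apart from the RefSeq windows.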

Additional observations from a re-analysis of the deposited data

Results flagged for a closer look

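Signal also appeared in clusters that name several genes, which the comparisons leave out. The cluster that names *Tubb3* and *Mc1r* had a mean log2 signal of 11.01 over the 6 arrays and the cluster that names *Tuba1a*, *Tuba1c* and *Gm5620* one of 9.23, both above the detection limit of 5.81. Their E12.5 minus E10.5 differences were 0.80 ± 0.44 (SE) (unadjusted p = 0.114) and 1.86 ± 0.65 (SE) (unadjusted p = 0.0234), and without E10.5 replicate 1 they were 0.19 and 0.99. Which of the named genes gave the signal was not tested.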

How the results depend on the processing

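The median E12.5 minus E10.5 difference over the 51 genes was 0.63 to 0.77 in the alternatives that kept all arrays and 0.40 to 0.85 when each array was left out in turn, where a stage left with 1 array was assumed to vary like the others. The number of genes higher at an unadjusted limma p under 0.05, 13 with all arrays, was 26 with the replicate number as a block (4.11% of all clusters in the same fit), 30 with that block and single-gene clusters alone, an alternative chosen after seeing the data (6.66% of those tested), 23 after quantile normalization (3.21%) and 6 in a fit of the 2 stages alone (1.01%). Of the single-gene clusters above the limit, these settings called 8.37%, 12.1%, 6.13% and 1.95% higher, against 3.64% with all arrays and no block. Numbers under an unadjusted p are not listed here for the fits that left out an array, since these leave 1 array in a stage. The number lower was 1, *Nefm* (unadjusted p = 0.0214 with the block), under both block fits, quantile normalization, the trended robust prior, no moderation, clusters above the limit and single-gene clusters, and 0 to 2 over the left-out arrays. Of the clusters tested, the block called 4.88% lower, the block with single-gene clusters 5.12% and quantile normalization 2.46%. The trended robust prior called 2.2% lower, no moderation 2.25%, clusters above the limit 2.38% and single-gene clusters 1.33%. Of the single-gene clusters above the limit, these settings called 1.28% to 5.6% lower. Past the adjusted threshold there were 0 genes in every setting that kept all arrays. Without E10.5 replicate 2, E10.5 rests on replicate 1 alone, the array with the lowest correlation with the others. The *Dpysl2* difference was then 2.50, against 1.47 with all arrays and 0.43 without E10.5 replicate 1.

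From E10.5 to E11.5 the number higher, 2 with all arrays, was 9 with the replicate block (2.32% of all clusters), 17 with the block and single-gene clusters (3.49% of those tested), 4 after quantile normalization (1.59%), 1 after centring (1.04%), 1 with the trended robust prior (0.849%) and 0 in the 2 stages alone (0.600%), and 0 to 14 over the left-out arrays, with 14 without E10.5 replicate 2 (9.86%). The number lower was 1 under both block fits, which called 3.01% and 2.63% of the clusters tested lower. From E11.5 to E12.5 the number higher, 1, was 2 with the replicate block (1.15%) and 3 with the block and single-gene clusters (1.72%). It was 2 with no moderation (0.591%) and 0 with the trended robust prior. The replicate numbers are shared by the stages, and arrays of the same number deviated from their stage means together (r of 0.455 to 0.484 across clusters), but the labels do not say what a number marks and 2 numbers cannot show a pairing, so the block is reported here alone. Over the left-out arrays, non-overlapping genes numbered 32 to 39 higher and 3 to 10 lower. Ordered genes numbered 15 to 29 upward and 1 to 2 downward, with 0 downward after quantile normalization. Fewer arrays make non-overlap and order easier to meet for any cluster, and the shares over all clusters were not counted for these fits.

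Among class medians, the intermediate filaments went from -0.25 to 0.35 with clusters above the detection limit, the MAPs from 0.28 to 0.42 and the Cdk5 class from 0.34 to 0.48 after centring, which moved the median of all clusters from -0.10 to 0.03, and the ankyrins and spectrins from 0.72 to 0.073 with the dimmer *Sptbn1* cluster. Over the left-out arrays the medians ran from -0.64 to -0.028 for intermediate filaments, 0.16 to 0.38 for MAPs, 0.29 to 0.88 for stathmins, 0.71 to 1.39 for the doublecortin family, 0.41 to 1.15 for tubulins, 0.40 to 0.99 for motor subunits, 0.34 to 1.03 for ankyrins and spectrins, 0.21 to 0.47 for the Cdk5 class and 0.58 to 1.80 for other neuronal proteins. Of the 51 genes, 13 changed sign in at least 1 setting. After centring *Gap43* was at 0.11, *Basp1* at 0.12, *Stmn4* at 0.073 and *Map6* at 0.035, and after quantile normalization *Ank2* was at -0.018. Without E10.5 replicate 1 *Ablim1* was at 0.23, *Gap43* at 0.20, *Basp1* at 0.18, *Cdk5r2* at 0.15, *Nefh* at 0.14, *Dync1i1* at 0.083, *Map6* at 0.034, *Nefl* at -0.028 and *Map4* at -0.068, and without E10.5 replicate 2 *Kif5b* was at 0.10. Without E12.5 replicate 1 *Gap43* was at 0.21, *Basp1* at 0.11 and *Kif5b* at 0.040, and without E12.5 replicate 2 *Stmn4* was at 0.29, *Dync1i1* at 0.086, *Map4* at -0.11 and *Ank2* at -0.16. The dimmer *Sptbn1* cluster was at -0.62. Over the left-out arrays the differences ran from -0.56 to 0.23 for *Ablim1*, -0.36 to 0.086 for *Dync1i1*, -0.27 to 0.21 for *Gap43*, -0.23 to 0.034 for *Map6* and -0.64 to 0.14 for *Nefh*. The causes were not tested. Signal over background limits the 5 genes below the detection limit, and other genes in single arrays. In E10.5 replicate 1, *Uchl1* (5.24), *Cdk5* (5.54), *Mapre3* (5.94), *Stmn3* (6.09) and *Kif5a* (6.10) lay under that array's 95th percentile of receptor signals. So did *Fez1* (6.17), *Dclk2* (6.27), *Fez2* (6.48), *Klc1* (6.48) and *Cdk5r1* (6.52), although the means of all these genes were above the limit. In E12.5 replicate 1, *Fez2* (6.01), *Mapre3* (6.07), *Cdk5* (6.08), *Uchl1* (6.46), *Map6* (6.47) and *Stmn3* (6.48) lay under its percentile. In E11.5 replicate 1, *Cdk5* (5.91) and *Mapre3* (6.06) did. Having 2 arrays a stage limits all of the genes.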
